A study of Mus musculus with 24 samples.

Results

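The presynaptic vesicle release machinery was followed in the mouse visual cortex through the mRNA of 34 genes: the synapsins, the SNARE proteins and their ATPase, synaptotagmins and other calcium sensors, complexins, active zone scaffolds and priming factors, Rab3a and its effector, vesicle membrane proteins and 2 vesicular glutamate transporters. The members were chosen by gene symbol, not by a measured value, and all 34 were found among the 55414 genes of the count table. Their lowest count in any library was 46, and all 34 were among the 14464 genes tested.

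The samples came from male C57BL/6J mice kept on a reversed light cycle and used at about 8 weeks of age, with 1 poly-A RNA-seq library per mouse and 6 mice per group. Dark mice (libraries 1 to 6) received an intraperitoneal injection of phosphate-buffered saline (PBS) and stayed in the dark. Light mice (13 to 18) received PBS and were moved into light for 2.5 h. Psilocybin-dark mice (7 to 12) and psilocybin-light mice (19 to 24) received 5 mg/kg psilocybin, a serotonergic psychedelic, in place of PBS and had the same time in the dark or in light. All animals were therefore injected wild-type males, and the comparisons ask what light, psilocybin or both changed relative to injected mice in the dark. The 2 sources for the light exposure of each library differ: these groups follow the headings of the study's supplementary count table, while the sample labels give every library the same drug and the opposite exposure. Under the labels the dark and light groups trade names, as do both psilocybin groups, so a light-dark difference and the interaction below would change sign. What is given here as psilocybin-dark against dark would be psilocybin-light against light, and what is given as psilocybin-light against dark would be psilocybin-dark against light. Either psilocybin group against dark mice would then have 0 members called by edgeR, from the comparisons given here as psilocybin-light and psilocybin-dark against light, instead of 11 and 16. Psilocybin averaged over both exposures would be the same. The libraries held between 13552516 and 17906994 counts.

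A nerve terminal releases transmitter when a vesicle fuses with the plasma membrane at the active zone. Synapsins hold vesicles in a reserve pool, Rab3 and RIM proteins bring them to the release site, Munc13 proteins (Unc13 genes) prime them, and the SNARE proteins syntaxin, SNAP-25 and synaptobrevin (Vamp genes) pull the membranes together. Complexins clamp and assist this step, synaptotagmins trigger it when calcium enters, and NSF takes the spent SNARE complex apart. In cortex, VGLUT1 (Slc17a7) loads the vesicles of intracortical terminals, whereas VGLUT2 (Slc17a6) is typical of thalamic neurons and other subcortical cells. Syt2 and Vamp1 are the fast calcium sensor and synaptobrevin of many fast-spiking and hindbrain neurons.

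Promoter sequences were looked up for the members in a RefSeq table (build GRCm38.p6) holding a window of 300 bases around each transcript start, most of it upstream. It held 38 promoters of 27 members, and 4 are shown: the 2 members with the largest rises over dark, Stx1a and Rims3, then Unc13a, which rose less, and Syn1, which passed no test. Capitals mark letters that match 1 of 4 searched motifs of activity-regulated or neuronal factors, read on both strands. These were the cyclic AMP response element TGACGTCA (CRE), the AP-1 site TGANTCA, the EGR site GCGTGGGCG and the RE1 core TCAGCACC, a piece of the site bound by REST. No matches overlapped each other in the sequences shown.
Stx1a, chr5:135023232-135023531, plus strand: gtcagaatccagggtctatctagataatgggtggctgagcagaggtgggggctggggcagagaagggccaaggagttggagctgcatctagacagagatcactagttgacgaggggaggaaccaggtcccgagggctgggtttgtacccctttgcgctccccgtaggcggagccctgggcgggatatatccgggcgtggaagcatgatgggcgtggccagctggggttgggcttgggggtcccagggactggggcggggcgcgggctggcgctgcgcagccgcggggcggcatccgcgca
Rims3, chr4:120854549-120854848, plus strand: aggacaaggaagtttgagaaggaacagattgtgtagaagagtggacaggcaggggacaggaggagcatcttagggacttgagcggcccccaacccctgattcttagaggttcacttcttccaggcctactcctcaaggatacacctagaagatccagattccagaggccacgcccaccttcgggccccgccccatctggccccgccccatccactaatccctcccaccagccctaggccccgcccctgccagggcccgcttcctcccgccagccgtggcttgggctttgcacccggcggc
Unc13a, chr8:71671708-71672007, minus strand: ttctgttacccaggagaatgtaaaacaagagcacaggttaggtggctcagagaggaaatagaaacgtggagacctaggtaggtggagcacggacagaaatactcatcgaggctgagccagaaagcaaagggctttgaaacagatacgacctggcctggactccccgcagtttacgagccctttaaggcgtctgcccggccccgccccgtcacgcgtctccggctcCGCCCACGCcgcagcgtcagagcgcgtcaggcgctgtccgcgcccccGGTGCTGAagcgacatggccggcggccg
Syn1, chrX:20920869-20921168, minus strand: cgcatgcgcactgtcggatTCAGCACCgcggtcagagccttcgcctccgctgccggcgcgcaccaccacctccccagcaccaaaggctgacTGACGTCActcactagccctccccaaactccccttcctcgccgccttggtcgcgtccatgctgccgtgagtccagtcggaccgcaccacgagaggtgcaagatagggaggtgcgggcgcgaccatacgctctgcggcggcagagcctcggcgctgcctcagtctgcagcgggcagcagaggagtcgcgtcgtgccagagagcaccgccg

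The CRE was found in 1 member promoter, that of Syn1, at -159 from the start, and in 1.79% of all 32851 promoters in the table. The EGR site was found only in Unc13a among the members, at -25 and on the opposite strand, and in 0.612% of all promoters. The RE1 core was found in Syn1 at -231 and in Unc13a at 22 on the opposite strand, against 1.65% of all promoters, and the AP-1 site in Erc2, Rph3a and Syt2, against 7.81%. Stx1a and Rims3 held none of these letters in the window shown. Matches are given as a description of the letters.

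Some libraries stood apart by genes of other brain regions. The summed normalized count (counts scaled by edgeR's TMM factors to a mean effective library size of 16058300) of 10 cerebellar markers lay between 17947 and 63482 in dark 1, dark 6, psilocybin-dark 12 and light 18, against 472 to 1883 in the other 20 libraries. Of 15 hypothalamus and amygdala markers, the sum was 1669.8 to 6665 in dark 1 to dark 5 and 403 to 958 in the other 19. Markers of cortical glutamatergic neurons summed to 20979 and 23049 in dark 1 and dark 6 and to at least 45980.2 elsewhere. By mean log2(normalized count + 1), hippocampal formation markers were also high in dark 1 to dark 5, at 7.86 to 8.20 against 6.67 to 7.33 in the other 19. Their sums did not split in this way, since dark 1 (18678) and dark 3 (18866) lay under psilocybin-light 24 (20118). Thalamus markers were high by sum in the 4 libraries with high cerebellar markers, at 6615 to 17421 against 2289 to 4768. By mean log2, psilocybin-light 23 (7.32) stood above light 18 (7.28) and psilocybin-dark 12 (6.93) for thalamus markers. Oligodendrocyte markers were lowest in dark 2, 3 and 4, at 20568 to 29666, against at least 43376 elsewhere, and highest in dark 1. Each dark library was thus high for cerebellar markers, for hypothalamus and amygdala markers, or, in dark 1, for both. Between light and dark mice 9 of 9 hypothalamus and amygdala markers tested were lower in light, beside 16.4% of all genes. Only 9 of the 15 listed were tested. A gene entered the test with 30 counts in any 1 library, so genes high only in dark mice could enter through them. Of 13 cortical glutamatergic markers 7 were higher in light, beside 15.4% of all genes, while of 14 hippocampal markers tested 6 were lower and 3 higher. Of the 10 cerebellar markers edgeR called, between the same groups, 0 (with 3 at an unadjusted p under 0.05) and DESeq2 1. All 10 were lower in psilocybin-light than in dark mice, beside 21% of all genes. With bulk tissue, fewer cells of a type and less RNA per cell cannot be told apart.

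**Figure D1:**
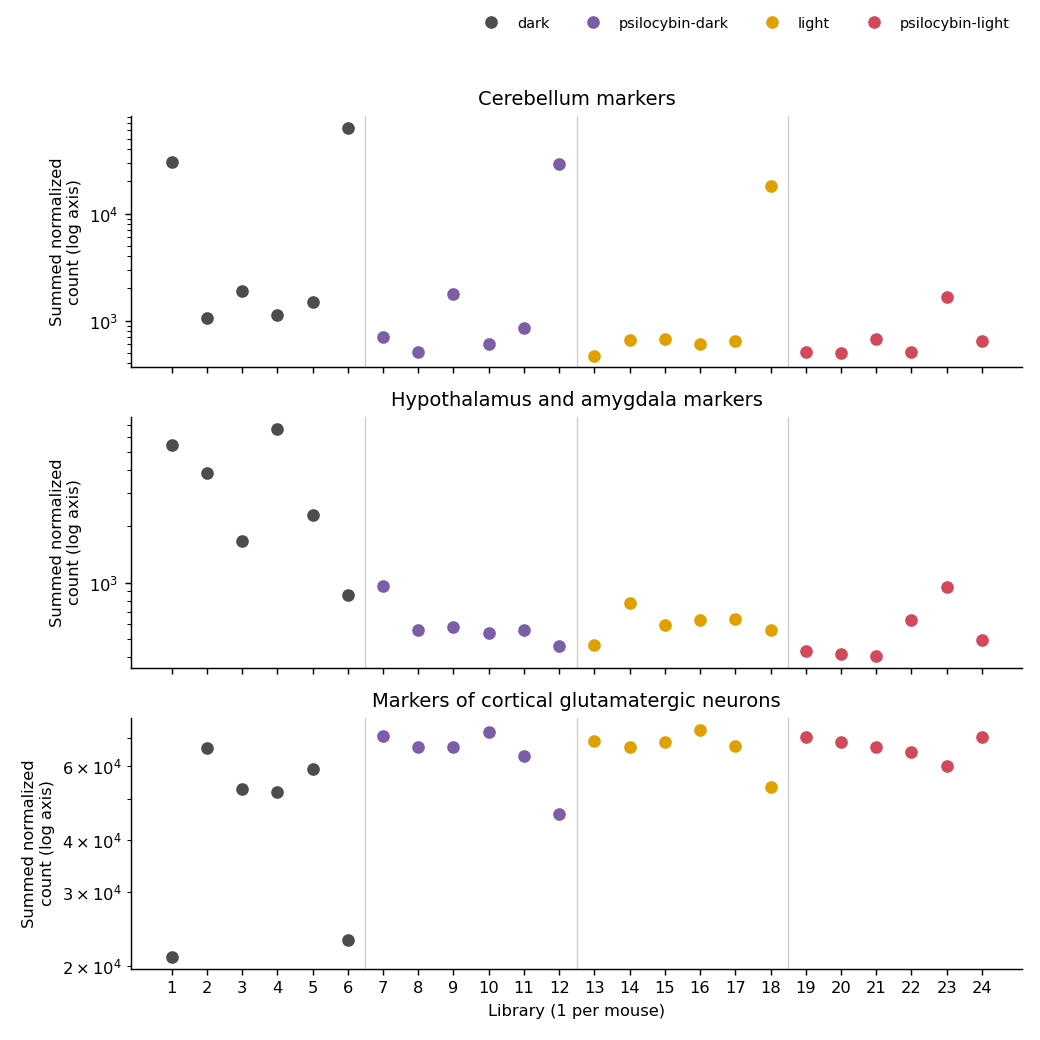
Summed normalized count (log axis) of 3 marker lists in each of the 24 libraries, with 1 point per mouse coloured by group. Cerebellar markers were high in libraries 1, 6, 12 and 18, hypothalamus and amygdala markers in libraries 1 to 5, and markers of cortical glutamatergic neurons were low in libraries 1 and 6.

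Against the dark mice, members of the release machinery moved in both directions, and each of the other 3 groups showed a similar list. Syntaxin 1A (Stx1a), the small RIM protein Rims3, Rimbp2, Unc13a, Syt1, Snap25 and Rph3a were higher in light, psilocybin-dark and psilocybin-light mice alike, and Doc2b, Syn2 and Nsf were lower in all 3. The 3 comparisons share the 6 dark libraries, so that a dark value far from the others enters each of them.

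In edgeR's quasi-likelihood test, with Benjamini-Hochberg adjustment over the 14464 genes and a threshold of adjusted p under 0.05, 15 of 34 members differed between light and dark. This was 44.1% of members, and 31.8% of all genes tested. Of these, 9 were higher in light (15.4% of all genes) and 6 lower (16.4%). In psilocybin-dark against dark mice 11 members differed (24.7% of all genes), 8 of them higher (11.9%) and 3 lower (12.8%). In psilocybin-light against dark mice 16 members differed (38.4% of all genes), 10 higher (17.4%) and 6 lower (21%). The median log2 fold change of the 34 members was 0.077, 0.076 and 0.0092 in these comparisons, beside -0.010, -0.017 and -0.021 over all genes. In all, 10 members were called in all 3 comparisons with dark, 7 in 1 or 2 of them and 17 in none. These counts depended on the fit. With the mean level of the hippocampal markers as a covariate, 3, 1 and 5 members were called in place of 15, 11 and 16, and with only the compared groups in the fit 6, 4 and 10. With that covariate Doc2b passed in all 3 comparisons, Stx1a and Pclo in light and psilocybin-light mice, and Syt4 and Sv2c in psilocybin-light mice. Of the dark mice only dark 6 (6.86) lay among the other groups in this covariate, so it and the dark group can hardly be told apart. Some calls were lost with little change in value. For Stx1a in psilocybin-dark mice edgeR gave 1.05 (adjusted p = 0.00194) without it and 1.10 (adjusted p = 0.13) with it. In the fits of only the compared groups, Stx1a, Rims3 and Doc2b passed in all 3.

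**Figure D2:**
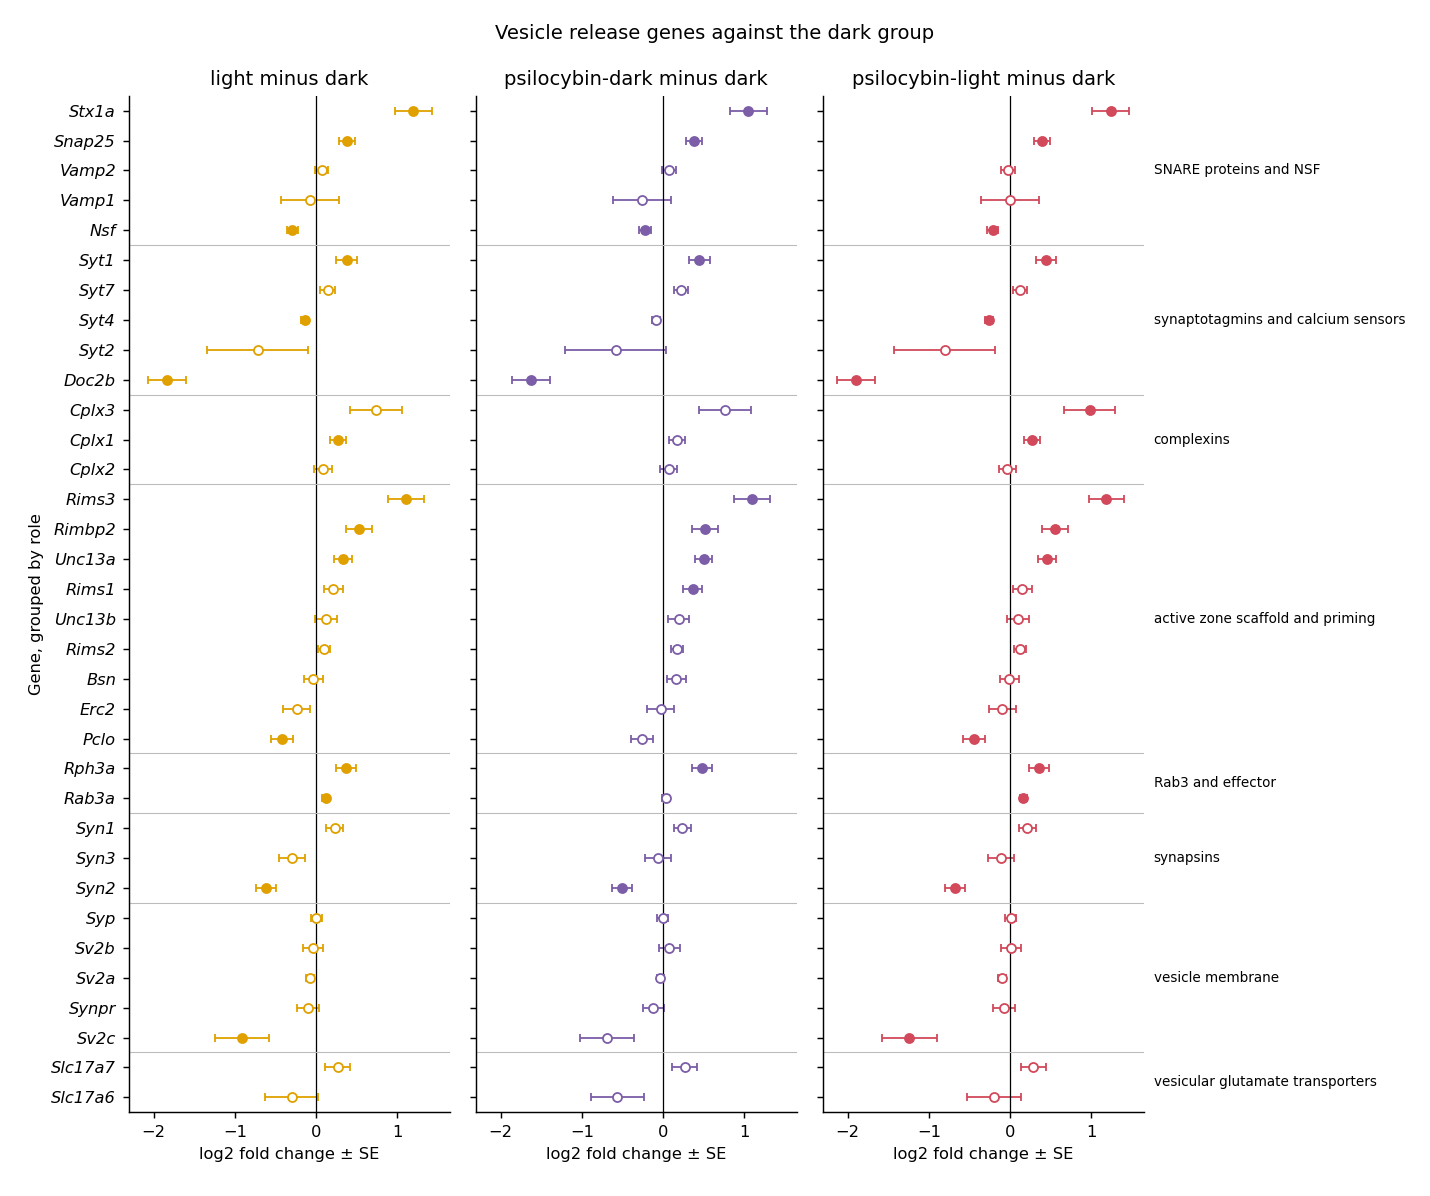
Log2 fold change ± SE of the 34 genes, grouped by role, for each group against the dark mice (6 mice per group), with filled points at an adjusted p under 0.05 in edgeR's test. Stx1a and Rims3 lie near 1.1 to 1.2 and Doc2b between -1.63 and -1.89 in all 3 panels, while the vesicle membrane genes other than Sv2c lie close to 0.

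Fewer members separated completely between groups. Between light and dark mice, every light library was above every dark one for Rims3 and Stx1a and below for Doc2b, where 10% of all genes separated in this way. Between psilocybin-dark and dark mice the 3 members that separated were Rims3 and Syt7, higher, and Doc2b, lower, beside 5.58% of all genes. Between psilocybin-light and dark mice 5 members separated, with Rims3 and Stx1a higher and Doc2b, Syn2 and Syt4 lower, beside 15.8% of all genes.

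Among the SNARE genes, Stx1a, the plasma membrane syntaxin (GRCm39 chr5:135052139-135079963), had the largest rise in light. Its normalized count ranged from 904 to 3997 in the dark mice (median 3090.5), 4842 to 6922 in the light mice (median 6387), 3989 to 6506 in the psilocybin-dark mice (median 5819) and 5301 to 7014 in the psilocybin-light mice (median 6499). The dark range touched only that of psilocybin-dark mice, where library 12 was the lowest. The log2 fold change over dark, with its SE, was 1.20 ± 0.23 (adjusted p = 0.000431) in light, 1.05 ± 0.23 (adjusted p = 0.00194) in psilocybin-dark and 1.24 ± 0.23 (adjusted p = 0.000217) in psilocybin-light mice, by edgeR, which corresponds to 2.30, 2.07 and 2.36 times the dark level. Within the dark group the lowest values, 904 and 1617, were those of dark 1 and dark 6, the libraries with low cortical neuron markers. Without them the light-dark value was 0.86 and still passed. Without dark 2 to 5, which leaves only dark 1 and 6, it was 2.31 and passed. With hippocampal markers as a covariate it was 1.25 and passed, while the psilocybin-dark value of 1.10 (adjusted p = 0.13) did not.

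Snap25, which contributes helices to the SNARE bundle (GRCm39 chr2:136533580-136624362), ranged from 27868 to 46694 in the dark mice (median 31358), 39593 to 47342 in the light mice (median 44985), 40219.9 to 48301 in the psilocybin-dark mice (median 44089.5) and 39349.6 to 50163 in the psilocybin-light mice (median 43626). In the dark group 5 of 6 libraries lay under all others and dark 6 lay among them. The log2 fold change was 0.38 ± 0.10 (adjusted p = 0.00442) in light, 0.38 ± 0.10 (adjusted p = 0.00641) in psilocybin-dark and 0.40 ± 0.10 (adjusted p = 0.0027) in psilocybin-light mice by edgeR. Without dark 1 and 6 the light-dark value was 0.52, and without dark 2 to 5 it was 0.16 and no longer passed (adjusted p = 0.28). Adding the hippocampal covariate gave 0.051 (adjusted p = 0.747) in light, 0.042 (adjusted p = 0.82) in psilocybin-dark and 0.042 (adjusted p = 0.794) in psilocybin-light mice, so that all 3 calls were lost. The 3 lowest oligodendrocyte sums were those of dark 2, 3 and 4. Dark 1 had the highest of all libraries (138096), and dark 5 (51382) lay within the range of the other groups. The part of these markers in the result was not tested.

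Nsf, the ATPase that recycles SNARE complexes, was lower than in dark mice, by log2 values of −0.29 ± 0.071 (adjusted p = 0.0032) in light, −0.22 ± 0.071 (adjusted p = 0.0241) in psilocybin-dark and −0.21 ± 0.071 (adjusted p = 0.0198) in psilocybin-light mice by edgeR. Its normalized count ranged from 14830.4 to 21806 in the dark mice (median 18024), 13219.6 to 15762 in the light mice (median 14857), 14112 to 16458 in the psilocybin-dark mice (median 15546) and 14712 to 16103 in the psilocybin-light mice (median 15459.8). The high dark values were those of libraries 2 to 5. Without these 4 libraries the difference was −0.054, 0.013 and 0.029, so that its direction turned in both psilocybin groups. The hippocampal covariate ended all 3 calls, at −0.17, −0.10 and −0.092. Leaving out 1 library ended the psilocybin-dark call without dark 3 (-0.16), dark 4 (-0.20) or psilocybin-dark 10 (-0.21), and the psilocybin-light call without dark 3 (-0.15) or psilocybin-light 19 (-0.19).

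The synaptobrevins passed no test. Vamp2, the main cortical synaptobrevin, ranged from 12431 to 19854 in the dark mice (median 18666), 15653 to 19381 in the light mice (median 18902), 17047 to 19089 in the psilocybin-dark mice (median 18454) and 15649 to 17980.5 in the psilocybin-light mice (median 17401), with a light-dark log2 value of 0.068 ± 0.083. Vamp1 ranged from 980.0 to 5897 in the dark mice (median 1487), 1788 to 2648 in the light mice (median 2438), 1514 to 2827 in the psilocybin-dark mice (median 1941) and 1616 to 4396 in the psilocybin-light mice (median 2199), with a light-dark value of −0.071 ± 0.36. Its 2 highest libraries in all were dark 1 and psilocybin-light 23.

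Among the calcium sensors, Doc2b, which senses low calcium and is linked to spontaneous and asynchronous release (GRCm39 chr11:75659792-75686907), showed the largest change of any member. Its normalized count ranged from 1292 to 3006 in the dark mice (median 1689), 427 to 745 in the light mice (median 497), 463 to 1111 in the psilocybin-dark mice (median 501) and 389 to 698 in the psilocybin-light mice (median 493). All dark libraries lay above all 18 others, and psilocybin-dark 12, light 18 and psilocybin-light 23 were the highest of their groups. The log2 fold change was −1.84 ± 0.23 (adjusted p = 7.35e-06) in light, −1.63 ± 0.23 (adjusted p = 4.23e-05) in psilocybin-dark and −1.89 ± 0.23 (adjusted p = 2.81e-06) in psilocybin-light mice by edgeR, or 0.280, 0.324 and 0.269 times the dark level. The light-dark value was −1.92 without dark 1 and 6, −1.64 without dark 2 to 5 and −1.24 with the mean level of hippocampal markers as a covariate, each past the threshold.

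Syt1, the fast calcium sensor of forebrain synapses, ranged from 13999 to 29639 in the dark mice (median 23257), 24969 to 33915 in the light mice (median 30527), 26321 to 34964 in the psilocybin-dark mice (median 32859) and 27739 to 34108 in the psilocybin-light mice (median 32074). The lowest library of each group was dark 1, light 18, psilocybin-dark 12 and psilocybin-light 23. Its log2 fold change was 0.38 ± 0.13 (adjusted p = 0.0249) in light, 0.45 ± 0.13 (adjusted p = 0.0114) in psilocybin-dark and 0.44 ± 0.13 (adjusted p = 0.00781) in psilocybin-light mice by edgeR. Without dark 1 and 6 the light-dark value was 0.21 and did not pass (adjusted p = 0.0694), nor did it without light 13 (0.34, adjusted p = 0.0551). Under the hippocampal covariate no call remained, at 0.33, 0.40 and 0.39.

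Syt4, a synaptotagmin that does not bind calcium in the usual way and whose mRNA is activity-regulated (GRCm39 chr18:31570857-31580794), was lower by small amounts. Its normalized count ranged from 4363 to 5178 in the dark mice (median 4646), 3886 to 4478 in the light mice (median 4362), 4169 to 4589 in the psilocybin-dark mice (median 4446) and 3678 to 4153 in the psilocybin-light mice (median 3921). The psilocybin-light mice lay under all dark mice, and their log2 value against dark was −0.26 ± 0.047 (adjusted p = 0.00017) by edgeR, against −0.14 ± 0.047 (adjusted p = 0.0262) in light mice. The light-dark call was lost without dark 4 (-0.11), light 17 (-0.11) or light 18 (-0.12), and with the hippocampal covariate (−0.11). Of its exon bases, 19.1% are shared with an antisense gene, and the strand setting of the counting is not given in the sources used here.

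Syt7, the sensor of slower release and facilitation, ranged from 4154 to 7117 in the dark mice (median 7029), 6775 to 7355 in the light mice (median 7047), 7313 to 7994 in the psilocybin-dark mice (median 7403) and 6561 to 7187 in the psilocybin-light mice (median 7057). In spite of the separate ranges of psilocybin-dark and dark mice, its log2 value of 0.23 ± 0.087 did not pass (adjusted p = 0.059, edgeR). Dark 1 and dark 4 lay far under the other dark mice. Syt2 ranged from 201 to 6549 in the dark mice (median 743), 862 to 2242 in the light mice (median 1249.8), 749 to 2984 in the psilocybin-dark mice (median 1273) and 770.5 to 2273 in the psilocybin-light mice (median 1139), and no comparison passed, with a light-dark value of −0.72 ± 0.62. Its 3 highest libraries, dark 6, dark 1 and psilocybin-dark 12, were among those with high cerebellar markers.

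That pattern was shared by several members. In the 4 libraries with high cerebellar markers Syt2 lay between 2242 and 6549, against 201 to 2273 in the other 20, and Sv2c between 549 and 1608, against 266 to 482. Vamp1 overlapped more, with 2323 to 5897 against 980.0 to 4396. Psilocybin-light 23 was the highest of its group for Syt2, Vamp1, Sv2c and Slc17a6. Its cerebellar marker sum of 1655 was under those of the 4 libraries, but above the 504 to 674 of the rest of its group. Its thalamus marker sum was 4037, against 2289 to 2574 in the rest of its group. The part of these markers in the result was not tested.

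**Figure D3:**
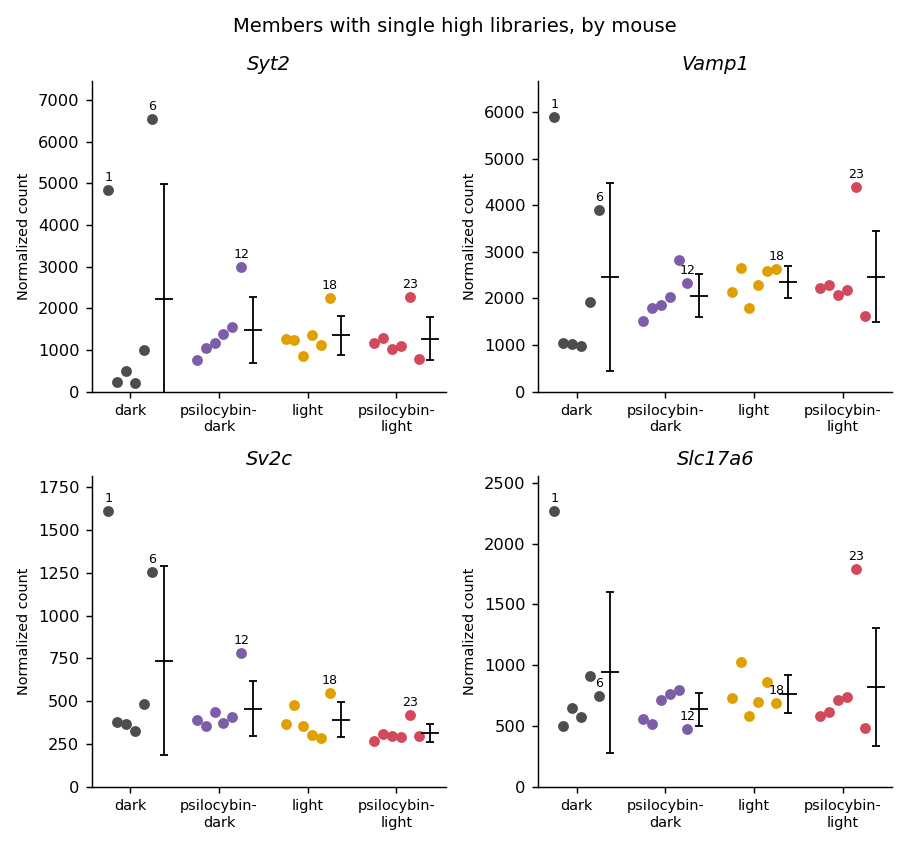
Normalized count of Syt2, Vamp1, Sv2c and Slc17a6 in each mouse, with 1 point per library and the mean ± SD of each group of 6 in black. Libraries 1, 6, 12, 18 and 23 are numbered; Sv2c exceeded 549 only in libraries 1, 6 and 12 and reached that value in 18, and Slc17a6 stood out in libraries 1 and 23. The lower error bar of Syt2 in dark mice runs below 0 and ends at the axis.

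The complexins differed by paralog. Cplx1, a complexin of inhibitory neurons among others, ranged from 7690.2 to 13446 in the dark mice (median 9703), 11602 to 12928 in the light mice (median 12000.0), 10059 to 12949 in the psilocybin-dark mice (median 11130.1) and 10869 to 13622 in the psilocybin-light mice (median 12041), and its log2 value was 0.27 ± 0.10 (adjusted p = 0.0401) in light and 0.27 ± 0.10 (adjusted p = 0.034) in psilocybin-light mice by edgeR. In psilocybin-dark mice it was 0.18 ± 0.10 and did not pass. The dark group spanned nearly all other libraries, with libraries 2, 3 and 4 low and dark 6 high, and the light-dark value was 0.46 without dark 1 and 6 but −0.033 without dark 2 to 5. The light-dark call was lost when dark 2 (0.21), 3 (0.25), 4 (0.22) or 5 (0.28) or light 13 (0.27), 14 (0.25), 15 (0.28), 16 (0.26) or 17 (0.28) was left out, and the psilocybin-light call without dark 2 (0.21), 3 (0.25) or 4 (0.22) or psilocybin-light 19 (0.26) or 20 (0.25). Hippocampal markers as a covariate turned both values, to −0.012 and −0.031.

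Cplx3, a complexin of retinal ribbon synapses and of subplate-derived deep cortical neurons, was the scarcest complexin. Its normalized count ranged from 41.2 to 431 in the dark mice (median 229.7), 345 to 516 in the light mice (median 388), 331 to 529 in the psilocybin-dark mice (median 395) and 378 to 546 in the psilocybin-light mice (median 496). It was called only in psilocybin-light against dark mice, at 0.98 ± 0.32 (adjusted p = 0.0188) by edgeR, beside 0.74 ± 0.32 in light and 0.76 ± 0.32 in psilocybin-dark mice. It passed no test between those 3 groups, and its call was lost with the hippocampal covariate (0.63). Cplx2, the abundant complexin of pyramidal neurons, ranged from 17116 to 30282 in the dark mice (median 22098), 20256 to 26484 in the light mice (median 24937), 21709.9 to 24985 in the psilocybin-dark mice (median 24227) and 19711 to 24124 in the psilocybin-light mice (median 22278) and passed no test, with a light-dark value of 0.086 ± 0.11.

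At the active zone the called members were mostly higher. Rims3, a RIM protein that keeps only the C-terminal C2 domain (GRCm39 chr4:120711977-120753780), ranged from 1508 to 3959.6 in the dark mice (median 2492), 4313 to 6922 in the light mice (median 5819), 4350.2 to 7359.5 in the psilocybin-dark mice (median 5538) and 5619 to 6723 in the psilocybin-light mice (median 5960.3). Dark 2, 3 and 4 held the lowest values of all, and no dark library reached those of the other groups. Dark 2, 3 and 4 were also the libraries with the lowest oligodendrocyte marker sums, while dark 1 had the highest. The part of these markers in the result was not tested. Its log2 fold change was 1.11 ± 0.22 (adjusted p = 0.000594) in light, 1.10 ± 0.22 (adjusted p = 0.00101) in psilocybin-dark and 1.19 ± 0.22 (adjusted p = 0.000225) in psilocybin-light mice by edgeR, or 2.16, 2.14 and 2.28 times the dark level. The light-dark value was 1.52 without dark 1 and 6 and 0.54 without dark 2 to 5, past the threshold in both. With hippocampal markers as a covariate it was 0.62 and did not pass (adjusted p = 0.156), nor did the values of 0.59 (adjusted p = 0.249) in psilocybin-dark and 0.67 (adjusted p = 0.113) in psilocybin-light mice.

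Rimbp2, which links RIM to calcium channels, ranged from 993 to 2815 in the dark mice (median 1852), 2451 to 3103 in the light mice (median 2719.9), 2196 to 3019.7 in the psilocybin-dark mice (median 2776) and 2298 to 3022 in the psilocybin-light mice (median 2926). Its log2 value was 0.53 ± 0.16 (adjusted p = 0.0133) in light, 0.51 ± 0.16 (adjusted p = 0.0213) in psilocybin-dark and 0.55 ± 0.16 (adjusted p = 0.00901) in psilocybin-light mice by edgeR. The lowest values were those of dark 1 and 6, and without them the light-dark value was 0.31 and still passed, while the psilocybin-dark value was 0.29 and did not (adjusted p = 0.0545). All 3 calls were lost with the hippocampal covariate, at values of 0.54, 0.52 and 0.56.

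Unc13a, the main Munc13 priming factor of excitatory terminals, whose promoter is printed above (gene at GRCm39 chr8:72076694-72124685), ranged from 3057 to 5877 in the dark mice (median 5043), 5472 to 6597 in the light mice (median 6044), 5826 to 7301 in the psilocybin-dark mice (median 6983) and 5751 to 7112 in the psilocybin-light mice (median 6709.6). It rose by a log2 value of 0.33 ± 0.11 (adjusted p = 0.0228) in light, 0.50 ± 0.11 (adjusted p = 0.00182) in psilocybin-dark and 0.46 ± 0.11 (adjusted p = 0.00194) in psilocybin-light mice by edgeR. Without dark 1 and 6 the light-dark value was 0.17 and did not pass (adjusted p = 0.0595), whereas the psilocybin-dark value was 0.33 and did. The light-dark call was also lost without light 16 (0.30, adjusted p = 0.0512). None of the 3 calls passed with the hippocampal covariate, at 0.28, 0.45 and 0.41. The gene shares 16.69% of its exon bases with Colgalt1 on the other strand.

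Rims1, the large RIM scaffold, was called only in psilocybin-dark against dark mice. It ranged from 2860.0 to 4811 in the dark mice (median 4528), 4325 to 5606 in the light mice (median 4772), 4174 to 6082 in the psilocybin-dark mice (median 5532) and 3957 to 5509 in the psilocybin-light mice (median 4434), and the log2 values were 0.37 ± 0.12 (adjusted p = 0.0263) in psilocybin-dark, 0.21 ± 0.12 in light and 0.15 ± 0.12 in psilocybin-light mice by edgeR. That call was lost when dark 1 (0.28), dark 4 (0.33), psilocybin-dark 8 (0.33), 10 (0.33) or 11 (0.34) was left out. The hippocampal covariate brought it to 0.017 (adjusted p = 0.96).

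Pclo (piccolo), a giant scaffold, was the 1 active zone member that fell. It ranged from 2504 to 5317 in the dark mice (median 3743), 2292 to 3296 in the light mice (median 2887), 2646 to 3707 in the psilocybin-dark mice (median 3162) and 2499 to 3165 in the psilocybin-light mice (median 2851), with log2 values of −0.41 ± 0.14 (adjusted p = 0.0233) in light and −0.44 ± 0.14 (adjusted p = 0.0127) in psilocybin-light mice by edgeR and −0.26 ± 0.14 in psilocybin-dark mice, which did not pass. The light-dark call was lost without dark 3 (-0.36), dark 6 (-0.29) or light 17 (-0.35). By edgeR it was also lost without dark 1 and 6 (−0.33, adjusted p = 0.0542) and with the cerebellar covariate (−0.34, adjusted p = 0.0831). Pclo passed in light without dark 2 to 5 (−0.55, adjusted p = 0.00923) and with the hippocampal covariate (−0.69, adjusted p = 0.0104). Its partner Bsn (bassoon) ranged from 6378 to 10058 in the dark mice (median 8731), 7130.4 to 10733 in the light mice (median 8310.5), 7707 to 12597 in the psilocybin-dark mice (median 9368) and 7544 to 9387 in the psilocybin-light mice (median 8592) and passed no test, with a light-dark value of −0.032 ± 0.12.

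The remaining scaffolds and primers were not called. Erc2 (CAST) ranged from 1719.8 to 4293 in the dark mice (median 3476), 2334 to 2890.3 in the light mice (median 2576), 2447 to 3285 in the psilocybin-dark mice (median 3099) and 2534 to 3079.9 in the psilocybin-light mice (median 2957), with dark 1 and 6 the lowest of all libraries and dark 2 the highest, and a light-dark value of −0.24 ± 0.16. Rims2 ranged from 1768 to 2612 in the dark mice (median 2097), 1966 to 2494 in the light mice (median 2234), 2205 to 2678 in the psilocybin-dark mice (median 2302) and 2146 to 2444 in the psilocybin-light mice (median 2292), with a light-dark value of 0.10 ± 0.077. Unc13b, the scarcer Munc13, had a light-dark value of 0.12 ± 0.13.

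Rab3a, the vesicle GTPase, and rabphilin (Rph3a), which binds it, both rose. Rph3a ranged from 3784 to 7404 in the dark mice (median 5493), 6442 to 7375 in the light mice (median 7059.6), 6247 to 8693 in the psilocybin-dark mice (median 7471) and 6399 to 7775 in the psilocybin-light mice (median 6841). Its log2 value was 0.37 ± 0.12 (adjusted p = 0.025) in light, 0.48 ± 0.12 (adjusted p = 0.00586) in psilocybin-dark and 0.36 ± 0.12 (adjusted p = 0.0225) in psilocybin-light mice by edgeR. The low libraries were dark 2, 3 and 4, and leaving out any 1 of these ended the call in light (0.30, 0.33 and 0.28) and in psilocybin-light mice (0.30, 0.33 and 0.28). Dark 2, 3 and 4 were also lowest in oligodendrocyte markers. Without dark 2 to 5 the light-dark value was 0.037. No Rph3a call passed with the hippocampal covariate, at 0.054 (adjusted p = 0.84) in light, 0.16 (adjusted p = 0.55) in psilocybin-dark and 0.025 (adjusted p = 0.931) in psilocybin-light mice.

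Rab3a varied little, with normalized counts from 7712 to 9355 in the dark mice (median 8555), 8778 to 9846 in the light mice (median 9291), 8458 to 9172 in the psilocybin-dark mice (median 8760.3) and 9213 to 9921 in the psilocybin-light mice (median 9672). Its log2 value was 0.12 ± 0.042 (adjusted p = 0.0364) in light and 0.16 ± 0.042 (adjusted p = 0.00407) in psilocybin-light mice by edgeR, and 0.032 ± 0.042 in psilocybin-dark mice, which did not pass. Without dark 1 and 6 the light-dark value was 0.081 and did not pass. That call was also lost without dark 1 (0.090), 2 (0.11) or 5 (0.12) or light 13 (0.11), 14 (0.12), 15 (0.10) or 17 (0.12), and both calls were lost with the hippocampal covariate (0.11 and 0.15). Of its exon bases, 17.97% are shared with the antisense gene Mpv17l2.

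Of the synapsins, only Syn2 was called. Its normalized count (GRCm39 chr6:115111825-115261708) ranged from 9014 to 16816 in the dark mice (median 13988), 8324 to 9056 in the light mice (median 8572), 7712 to 10986 in the psilocybin-dark mice (median 9131) and 7663 to 8927 in the psilocybin-light mice (median 8230.0). Dark 2 to 5 were the 4 highest of all libraries, while dark 1 and 6 lay within the range of the psilocybin-dark mice. The log2 fold change was −0.61 ± 0.12 (adjusted p = 0.000727) in light, −0.51 ± 0.12 (adjusted p = 0.00445) in psilocybin-dark and −0.68 ± 0.12 (adjusted p = 0.000179) in psilocybin-light mice by edgeR. Without dark 1 and 6 the light-dark value was −0.81. Without dark 2 to 5 the 3 values were −0.068, 0.034 and −0.13, none of which passed. Nor did they pass with hippocampal markers as a covariate, at −0.25 (adjusted p = 0.28) in light, −0.15 (adjusted p = 0.585) in psilocybin-dark and −0.30 (adjusted p = 0.175) in psilocybin-light mice. The gene shares 12.64% of its exon bases with antisense genes, Timp4 among them.

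Syn1 ranged from 6362 to 11060.5 in the dark mice (median 10187), 9213 to 11924 in the light mice (median 11174), 9608 to 11659 in the psilocybin-dark mice (median 11276) and 9588 to 11688 in the psilocybin-light mice (median 10995) and was not called, with a light-dark log2 value of 0.23 ± 0.11 (adjusted p = 0.1, edgeR). Syn3, the scarcest member, ranged from 107 to 212 in the dark mice (median 169.9), 104 to 168 in the light mice (median 138), 109 to 200.3 in the psilocybin-dark mice (median 167) and 124 to 187 in the psilocybin-light mice (median 157), with a light-dark value of −0.30 ± 0.16. Exon bases shared with antisense genes made up 22.72% of Syn3.

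**Figure D4:**
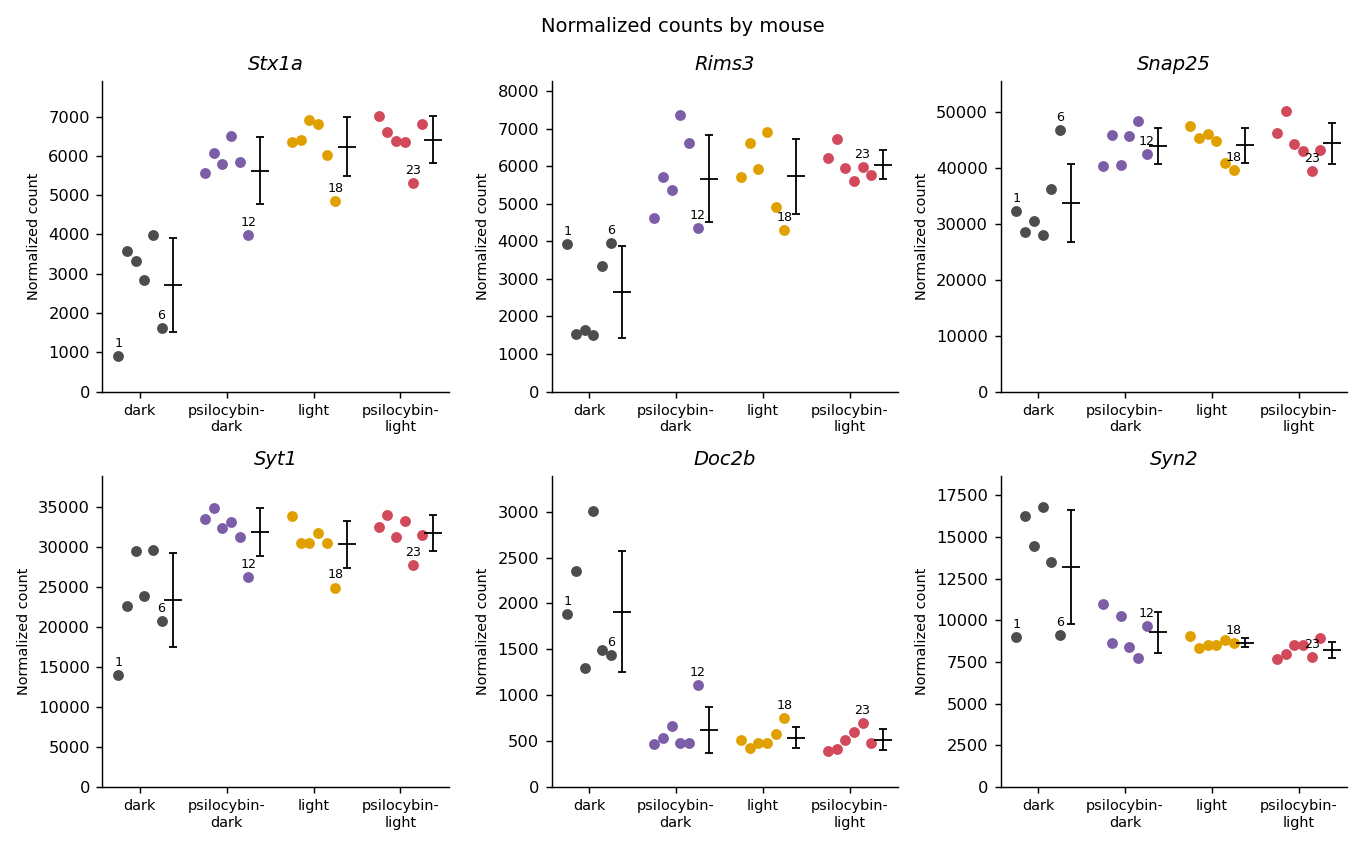
Normalized count of 6 members in each mouse, with 1 point per library, libraries 1, 6, 12, 18 and 23 numbered and the mean ± SD of each group of 6 in black. Stx1a and Syt1 were lowest in dark 1, Rims3 was lowest in dark 2 to 4 and Snap25 was low in dark 1 to 5. Doc2b was high in all 6 dark mice and Syn2 in dark 2 to 5.

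Of 5 vesicle membrane genes, only Sv2c was called. Syp (synaptophysin), the standard marker of synaptic vesicles, ranged from 14819.8 to 20811 in the dark mice (median 19901), 17609 to 19736 in the light mice (median 18757), 18034 to 19466 in the psilocybin-dark mice (median 18676) and 17506 to 20425 in the psilocybin-light mice (median 18887), and its log2 value against dark was 0.0033 ± 0.065 in light, −0.0056 ± 0.065 in psilocybin-dark and 0.0061 ± 0.065 in psilocybin-light mice. Sv2a, the binding site of levetiracetam, ranged from 8295 to 10174 in the dark mice (median 9509), 8427 to 9311 in the light mice (median 8877), 8718 to 9806 in the psilocybin-dark mice (median 8989) and 8202 to 9158 in the psilocybin-light mice (median 8775), with a light-dark value of −0.076 ± 0.047. These SEs are among the smallest of the members, and neither gene was called.

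Sv2b ranged from 6123 to 12385 in the dark mice (median 11261), 8260.0 to 11550.0 in the light mice (median 10076), 9488 to 11773 in the psilocybin-dark mice (median 10823) and 8055 to 11091 in the psilocybin-light mice (median 10665) and Synpr had a light-dark log2 value of −0.10 ± 0.13; neither passed. Sv2c, the SV2 form of basal ganglia and hindbrain, ranged from 328 to 1608 in the dark mice (median 430.4), 287 to 549 in the light mice (median 363), 353 to 782 in the psilocybin-dark mice (median 398) and 266 to 416 in the psilocybin-light mice (median 295) and was lower than in dark mice by −0.92 ± 0.33 (adjusted p = 0.0399) in light and −1.24 ± 0.34 (adjusted p = 0.00585) in psilocybin-light mice by edgeR. Dark 1 and 6 held 1608 and 1256, and without them the values were 0.017 and −0.31, which did not pass. The light-dark call was also lost without dark 1 alone (-0.52), dark 6 alone (-0.69) or light 13 (-0.90), 15 (-0.89), 16 (-0.85) or 17 (-0.84), and with the hippocampal covariate (−1.02, adjusted p = 0.106). The cerebellar covariate ended both calls, at −0.091 and −0.25.

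The vesicular glutamate transporters passed no test. Slc17a7 ranged from 11156 to 29869 in the dark mice (median 26762), 23927 to 30892 in the light mice (median 28358), 24552 to 30562 in the psilocybin-dark mice (median 28566) and 23019 to 30906 in the psilocybin-light mice (median 29305), with a light-dark log2 value of 0.27 ± 0.15. Dark 1 and 6 were the lowest of all libraries. Slc17a6 ranged from 502 to 2265 in the dark mice (median 694), 584 to 1025 in the light mice (median 715), 475 to 794 in the psilocybin-dark mice (median 636) and 485 to 1789 in the psilocybin-light mice (median 663), with a light-dark value of −0.30 ± 0.33, and its highest libraries were dark 1 and psilocybin-light 23.

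The calls against dark thus rested on different dark libraries, and for most of them on the fit without the hippocampal covariate. Over the 3 comparisons with dark, Stx1a, Rims3 and Doc2b passed in each of 3 settings: without dark 1 and 6, without those and psilocybin-dark 12 and light 18, and without dark 2 to 5. The last leaves only dark 1 and 6, a smaller dark group with high cerebellar and low cortical glutamatergic marker sums. The others leave dark 2 to 5, with high hypothalamus and amygdala marker sums. No setting thus had dark mice without high markers of another region. Cplx1, Nsf, Rph3a, Snap25 and Syn2 passed without dark 1 and 6 and not without dark 2 to 5, in each comparison in which they had been called. Sv2c showed the opposite, Cplx3, Rab3a, Syt4 and Pclo passed in each setting in psilocybin-light mice and Rims1 in psilocybin-dark mice, and Rimbp2, Syt1 and Unc13a kept their direction throughout with larger values when dark 2 to 5 were left out. Since the marker sums differed between the dark libraries in the same way, the sums and the group cannot be told apart for the genes that needed 1 set of libraries.

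**Figure D5:**
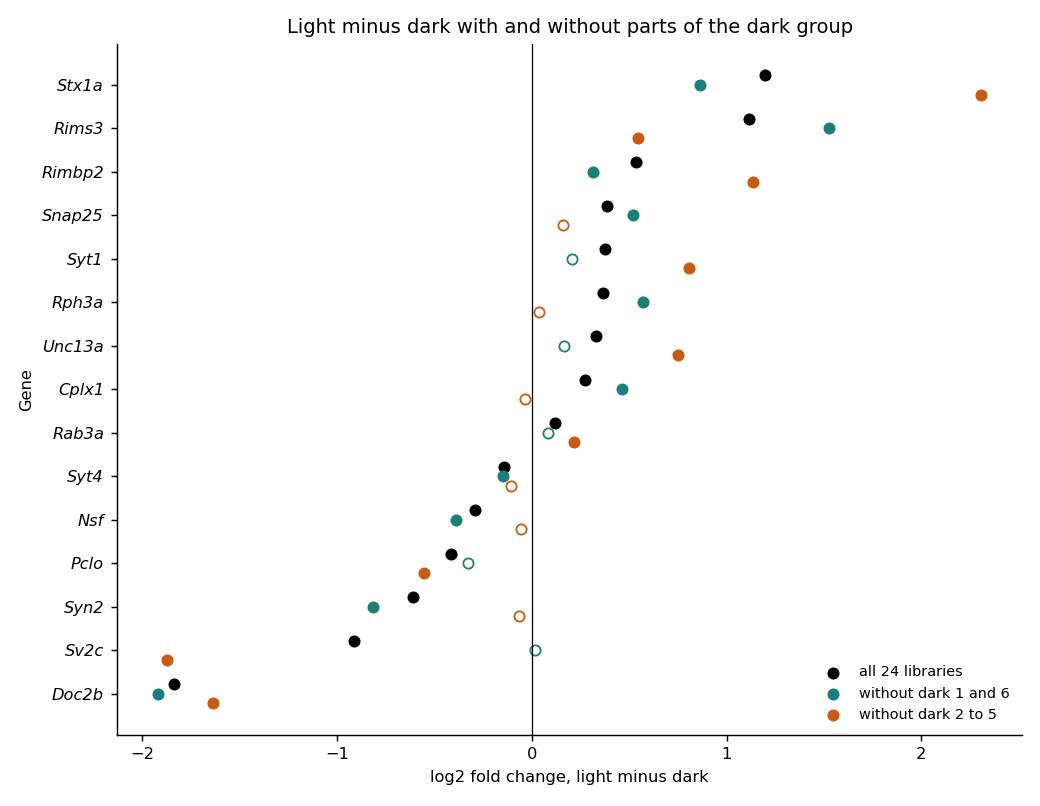
Log2 fold change between light and dark mice of the 15 members called, with all 24 libraries, without dark 1 and 6 and without dark 2 to 5, filled where the adjusted p was under 0.05 in edgeR's test. Doc2b, Stx1a, Rims3 and Rimbp2 passed in all 3 fits, Syn2, Nsf, Snap25, Rph3a, Cplx1 and Syt4 did not pass without dark 2 to 5, and Sv2c came to 0.017 without dark 1 and 6.

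Among the 3 groups other than dark, edgeR called 1 member in 1 of 3 comparisons. Psilocybin-light against light mice gave 0 calls by edgeR (0.581% of all genes), with 1 member at an unadjusted p under 0.05 and 0 calls by DESeq2, and the log2 values lay between -0.33 (Sv2c) and 0.24 (Cplx3). Psilocybin-dark against light mice also gave 0 calls by edgeR (0.463% of all genes), with 0 members at an unadjusted p under 0.05 and 0 calls by DESeq2, and values between -0.26 (Slc17a6) and 0.23 (Syn3). Psilocybin-light against psilocybin-dark mice gave 1 call (6.4% of all genes), Syt4, at −0.17 ± 0.047 (adjusted p = 0.0285) by edgeR. It was lost when any 1 of 7 libraries was left out, with values of -0.15 to -0.17: psilocybin-dark 8, 9 and 10 and psilocybin-light 19, 20, 23 and 24. Between these groups 3 members separated completely, with Rab3a higher and Syt4 and Syt7 lower in every psilocybin-light library, beside 6.42% of all genes. None separated between psilocybin-light and light mice (1.62% of all genes) or psilocybin-dark and light mice (2.21%).

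The interaction, the combined effect less the sum of the separate effects of light and psilocybin, was called for 2 members (8.7% of all genes), with 11 at an unadjusted p under 0.05. Doc2b had a value of 1.57 ± 0.33 (adjusted p = 0.00646) and Rims3 of −1.02 ± 0.31 (adjusted p = 0.0423) by edgeR. For both, light and psilocybin each moved the level by about the same amount and both together by a similar amount, with medians of 497, 501 and 493 for Doc2b in light, psilocybin-dark and psilocybin-light mice. With 1 library left out at a time, Rims3 no longer passed in 17 of 24 fits, with values between -1.17 and -0.90 over all 24, and the interaction takes in the dark libraries in full. Without dark 2 to 5 the Rims3 value was −0.44 and did not pass. Neither call passed with the hippocampal covariate, at 1.02 (adjusted p = 0.156) for Doc2b and −0.54 (adjusted p = 0.468) for Rims3.

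Psilocybin averaged over light exposure, which does not depend on the source of the light labels, was called for 6 members (15.4% of all genes), 3 higher (7.57%) and 3 lower (7.79%). The higher ones were Rims3 at 0.59 ± 0.15 (adjusted p = 0.0132), Stx1a at 0.55 ± 0.16 (adjusted p = 0.024) and Unc13a at 0.31 ± 0.077 (adjusted p = 0.00803) by edgeR. The lower ones were Doc2b at −0.84 ± 0.16 (adjusted p = 0.00196), Syn2 at −0.29 ± 0.088 (adjusted p = 0.0274) and Syt4 at −0.10 ± 0.033 (adjusted p = 0.0379). These values average psilocybin-dark against dark mice with psilocybin-light against light mice, the comparison that gave 0 calls. All 6 calls were lost with the hippocampal covariate, where the values were 0.32 (adjusted p = 0.311) for Rims3, 0.57 (adjusted p = 0.176) for Stx1a, 0.29 (adjusted p = 0.13) for Unc13a, −0.54 (adjusted p = 0.0757) for Doc2b, −0.10 (adjusted p = 0.561) for Syn2 and −0.089 (adjusted p = 0.244) for Syt4. The Syn2 call was lost without dark 4 (-0.25), psilocybin-dark 10 (-0.28) or 11 (-0.27) or psilocybin-light 19 (-0.27) or 20 (-0.28), and Syt4 no longer passed in 12 of 24 such fits, with values from -0.11 to -0.088 over all 24.

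The spread between mice was itself widest in the dark group. The coefficient of variation of the members' normalized counts had a median of 23.4% in dark mice, against 8.78% in light, 9.75% in psilocybin-dark and 8.50% in psilocybin-light mice. For 30 of 34 members the dark group had the largest value, up to 124% for Syt2. The same measure was not computed over all genes, so the wide dark spread cannot be called particular to these members. The least variable member in each group was Syt4 in dark (5.89%), Syn2 in light (3.08%), Syp in psilocybin-dark (2.67%) and Rab3a in psilocybin-light mice (2.74%).

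Levels were compared between members as normalized counts per kilobase of merged exons, as a mean of the 4 groups. The most abundant were Slc17a7 (4881), Cplx2 (4674), Vamp2 (4560.2) and Snap25 (4140.1), followed by Cplx1 (3123), Syp (3107), Rab3a (3021), Syn1 (2559), Syt1 (2278) and Stx1a (1629.9). The scarcest were Sv2c (48.8), Unc13b (39.1) and Syn3 (7.31). In dark mice Slc17a7 (4217) stood under Cplx2 (4572) and Vamp2 (4468), whereas in light mice it stood above both, at 5074 against 4851 and 4683. The SD of Slc17a7 in dark mice was 7280.2 on a mean of 23378 normalized counts, so that its place among the first 3 in the dark was within the spread between mice.

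Other presynaptic genes, from lists of 114 genes of which 111 were tested, gave 48 calls between light and dark mice (17 higher, 31 lower), beside 31.8% of all genes called. There were 29 between psilocybin-dark and dark mice (15 and 14, beside 24.7% of all genes) and 53 between psilocybin-light and dark mice (25 and 28, beside 38.4%). Among 34 further active zone, Rab and priming genes 15 were lower and 4 higher in light, beside 16.4% and 15.4% of all genes. The lower ones with the largest changes and a mean count of at least 100 were Baiap3 (−2.11 ± 0.52), a Munc13-related gene that also stands in the hypothalamus and amygdala marker list, Unc13c (−1.34 ± 0.38), a Munc13 form of the cerebellum, and Rab3c (−0.90 ± 0.11), a Rab3 paralog. All 3 were also lower in psilocybin-dark and psilocybin-light mice, in comparisons that share the same dark libraries. Values of the genes in these lists are from the main fit. Fits with left-out libraries or marker covariates are not given for them.

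Among 27 further SNARE and synaptotagmin genes tested, 6 were higher and 6 lower in light. For this list and those that follow, the shares of all genes were 15.4% higher and 16.4% lower. Syt10 (−1.70 ± 0.25) and Syt9 (−1.45 ± 0.29), synaptotagmins with calcium-binding C2 domains, were lower, and Syt6 (0.75 ± 0.25) was higher. Of 28 endocytosis and recycling genes 4 were higher and 6 lower, with Ston2 at −0.48 ± 0.12, Synj1, which uncoats vesicles, at −0.33 ± 0.092 and Dnm3, a dynamin, at −0.27 ± 0.08. Of 22 vesicle membrane genes tested 3 were higher and 4 lower, with Vat1l at −0.89 ± 0.17 and Sncb (beta-synuclein) at 0.31 ± 0.062. Slc6a17, a vesicular amino acid transporter, was higher in psilocybin-dark mice at 0.35 ± 0.087. Between psilocybin-dark and light mice edgeR called 0 (with 25 at an unadjusted p under 0.05) and DESeq2 4 of the 111.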

How the data were processed

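The authors extracted visual cortex RNA with a Qiagen kit, enriched poly-A RNA, trimmed reads with cutadapt, aligned them with STAR and counted reads per gene with HTSeq. The deposited values are raw counts of 55414 genes in 24 libraries. The study's methods name GRCm39 and the submitters' processing notes mm10; the annotation release and strand setting are not given in the sources used here. GENCODE vM39 (GRCm39) named 54749 genes and gave positions and exon lengths; promoters came from RefSeq (GRCm38.p6).

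The 14464 genes that reached 30 counts in some library were fitted in edgeR 4.0.16 (R 4.3.3) with TMM and a robust quasi-likelihood model, 1 term per group, all 24 libraries and 8 comparisons, each two-sided with Benjamini-Hochberg adjustment over all genes tested. The SE is the absolute log2 fold change divided by the square root of F. The common biological coefficient of variation was 0.182 at 13552516 to 17906994 counts per library. The fit was tested on simulated data. Each library is 1 mouse, so p-values measure the spread between mice.

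Members were chosen by gene symbol and the lists were not picked for how genes moved, but earlier results of these data were known. Named were members called in any comparison, up to 3 abundant uncalled members of each role, and per list the 3 called genes with the largest changes. Alternatives were fits of only the compared groups, DESeq2 1.42.0, its size factors, no count filter, filterByExpr, stricter thresholds, 1 surrogate variable (sva 3.50.0), marker covariates, left-out libraries and exchanged light labels. Dark 2 to 5 left out and the cerebellar covariate were added after seeing the data.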

Additional observations from a re-analysis of the deposited data

Results flagged for a closer look

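The 34 members were screened in each group of 6 mice for 1 outlying mouse with Dixon's ratio, the gap to the nearest mouse divided by the whole range. Of 136 screens, 15 exceeded the critical value for 6 mice, which a single screen exceeds by chance in about 1 in 20. The screens use the same libraries and are not independent, and no rate over all genes was computed. The count therefore cannot be read as an excess among members. In psilocybin-dark 12, one of the libraries with high cerebellar markers, the ratio was 0.694 for Doc2b (high), 0.635 for Erc2 (low), 0.627 for Stx1a (low), 0.806 for Sv2c (high), 0.665 for Syn1 (low) and 0.643 for Syt2 (high). In psilocybin-light 23 it was 0.809 for Slc17a6, 0.735 for Sv2c, 0.665 for Syt2 and 0.756 for Vamp1, all high, and 0.674 for Slc17a7 and 0.643 for Sv2b, both low. Dark 1 stood apart for Slc17a6 (0.769, high), light 18 for Syt2 (0.634, high) and psilocybin-dark 8 for Syt7 (0.747, high). Of the 15, 13 fell in psilocybin-dark 12, psilocybin-light 23 and light 18. The ratio can miss 2 outlying mice in the same group, since each is near the other. In the dark group Syt2 and Sv2c, both high in dark 1 and dark 6, were not flagged. Their coefficients of variation there were 124% and 75.1%, so few flags in dark mice do not mean a narrow spread. Whether the marker levels of these libraries account for the ratios was not tested.

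The effect of psilocybin differed between light and dark for 2 members in edgeR's interaction test. For Doc2b the effect under light less that in the dark was 1.57 on the log2 scale (adjusted p = 0.00646), and for Rims3 it was -1.02 (adjusted p = 0.0423). The dark group, whose libraries all carried high cerebellar or hypothalamus and amygdala markers, enters both values, and with hippocampal markers as a covariate they were 1.02 and -0.54 and did not pass (adjusted p = 0.156 and 0.468).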

How the results depend on the processing

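DESeq2's test, its size factors and 1 surrogate variable each kept all 51 calls of members over the 8 comparisons; filterByExpr lost 1, no filter 15 and the cerebellar covariate 12. Only the compared groups in the fit lost 22 of 43. With the hippocampal covariate 10 of 51 kept, 39 lost and 2 turned. Without dark 1 and 6, 44 kept, 6 lost and 1 turned, and without dark 2 to 5, 33 kept, 13 lost and 5 turned. The cause of these losses was not tested.

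The values that turned were Cplx1 with the hippocampal covariate, -0.012 in light and -0.031 in psilocybin-light against dark mice, and without dark 2 to 5, -0.033 and -0.026; Sv2c in light against dark mice without dark 1 and 6, 0.017; and, without dark 2 to 5, Syn2 in psilocybin-dark mice, 0.034, and Nsf in psilocybin-dark and psilocybin-light mice, 0.013 and 0.029.

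Counts of members called that moved by over 1.5 times were as follows. For light against dark mice (15), no filter gave 9, only the compared groups 6, an adjusted p under 0.01 gave 6, a limit of 1 on the absolute log2 fold change gave 3 and the hippocampal covariate 3. For psilocybin-dark against dark mice (11), only the compared groups gave 4, the stricter p 7, the fold limit 3, the surrogate variable 17, the hippocampal covariate 1, leaving out dark 1 and 6 gave 17, those with psilocybin-dark 12 and light 18 also 17 and leaving out dark 2 to 5 gave 22. For psilocybin-light against dark mice (16), only the compared groups gave 10, the fold limit 4 and the hippocampal covariate 5. For psilocybin-light against psilocybin-dark mice (1), DESeq2 gave 2, no filter 0, only the compared groups 2, the stricter p 0, the fold limit 0, the surrogate variable 4, and leaving out dark 1 and 6, those with psilocybin-dark 12 and light 18, or dark 2 to 5 gave 2, 3 and 2. For psilocybin-dark against light mice (0), leaving out dark 1, dark 6, psilocybin-dark 12 and light 18 gave 1. For the interaction (2), DESeq2 gave 4, no filter 1, the stricter p 1, the surrogate variable 13, the hippocampal covariate 0, the cerebellar covariate 5, and the same 3 sets of left-out libraries 10, 13 and 17. For psilocybin averaged over light exposure (6), no filter gave 3, the stricter p 2, the fold limit 0, the surrogate variable 11, the hippocampal covariate 0, and the same 3 sets 11, 13 and 19. Under the light exposure of the sample labels, the counts under each name were 0 for psilocybin-dark and 0 for psilocybin-light against dark mice, 11 for psilocybin-light against light and 16 for psilocybin-dark against light mice, since the groups trade places.

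Leaving out 1 library at a time gave 10 to 16 members for light against dark, 9 to 14 for psilocybin-dark against dark, 13 to 17 for psilocybin-light against dark, 0 to 0 for psilocybin-light and for psilocybin-dark against light, 0 to 2 for psilocybin-light against psilocybin-dark mice, 1 to 6 for the interaction and 4 to 9 for psilocybin averaged over light exposure. The interaction count was 5 without dark 1, 6 without dark 6 and 4 without psilocybin-dark 12. Of the 51 calls, 34 passed in all 24 of these fits. No paired analysis was possible because the labels give no number shared between groups. The depth left no member under 46 counts.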
